A study of Mus musculus with 22 samples.

Results

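The Tdpoz genes Tdpoz1, Tdpoz2, Tdpoz3, Tdpoz4 and Tdpoz5 were followed across 10 of the 11 constructs of the series. They were found by symbol in the gene annotation of the deposited tables, and all 5 are among the 55487 genes listed. RNA was sequenced from mouse embryonic stem cells without Dux (Dux-/-), kept in 2iLIF medium, that carried a transgene induced by doxycycline. After 24 hours of recovery from plating, every group, the control included, received doxycycline at 0.25 ug/mL for 12 hours. The transgene coded for mCherry, a red fluorescent protein, alone (group mCherry) or joined to full-length DUX (group FL) or to a derivative of DUX. The derivatives are named in the labels as C3+14, C1+14, C1C3a, C1C3b, C1C3c, C12345delt14, deltC12345+14 and deltC12345delt14. The names combine C1 to C5 and 14 with delt, which the labels do not spell out, and the labels do not say what a, b and c stand for. Each of these 10 groups has 2 replicates, giving 20 libraries, and C3delt14 was not analysed here. The labels do not say whether the replicates are separate clones or cultures, so p-values measure only the spread between these samples, which may be technical. DUX here comes from an induced transgene in cells without Dux, and the level of the induced proteins was not measured in these files.

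DUX binds DNA through a pair of homeodomains and activates genes that are normally on when the mouse embryo starts its own transcription. The Tdpoz proteins carry a TRAF-like (MATH) domain followed by a POZ (BTB) domain, the layout of SPOP. SPOP is a substrate adaptor of the CUL3 ubiquitin ligase: its MATH domain holds the target protein and its BTB domain binds CUL3. Tdpoz transcripts are known from the earliest mouse embryos.

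The genes lie within 1 array on chromosome 3 (GRCm38, GENCODE M21). Tdpoz2 (ENSMUSG00000103362) is at chr3:93651542-93652686 on the minus strand and Tdpoz1 (ENSMUSG00000094084) at chr3:93669333-93676310 on the minus strand. Tdpoz4 (ENSMUSG00000060256) is at chr3:93796398-93797510 and Tdpoz3 (ENSMUSG00000058005) at chr3:93826020-93827117, both on the plus strand. Tdpoz5 (ENSMUSG00000094163) is at chr3:93960292-93961314 on the minus strand. Tdpoz1 has 2 exon blocks and the other members 1. The models of Tdpoz3, Tdpoz4 and Tdpoz5 hold the coding sequence only, so reads from their untranslated ends would not be counted. The model of Tdpoz1, at 2353 bases of exon, and that of Tdpoz2, at 1145 bases, also hold untranslated sequence. No member overlaps another annotated gene.

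The coding sequences of the members are between 78.6% (Tdpoz1 and Tdpoz4) and 88.4% (Tdpoz1 and Tdpoz3) identical. Their first 60 coding bases, read from the GENCODE M21 transcripts, are shown because they let a reader see how alike the counted sequences are. Capitals mark bases that differ from Tdpoz3.
Tdpoz1: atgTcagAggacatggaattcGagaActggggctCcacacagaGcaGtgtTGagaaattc
Tdpoz2: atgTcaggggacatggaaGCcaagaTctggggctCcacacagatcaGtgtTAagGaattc
Tdpoz3: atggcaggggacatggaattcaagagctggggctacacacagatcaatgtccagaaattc
Tdpoz4: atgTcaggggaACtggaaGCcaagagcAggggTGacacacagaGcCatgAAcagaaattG
Tdpoz5: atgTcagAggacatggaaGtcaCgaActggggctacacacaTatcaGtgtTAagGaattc
In this window Tdpoz1 differs from Tdpoz3 at 9 bases, Tdpoz2 at 9, Tdpoz5 at 10 and Tdpoz4 at 13. At the length of a short read the members are mostly distinct from each other: any pair shares at most 3.05% of the 50-base words of either gene. They share more with other genes of the array. Tdpoz5 has the same transcript as Gm10697 (RefSeq Tdpoz7), so 100% of its 50-base words occur elsewhere. The corresponding share is 66.2% for Tdpoz3, almost all of it with Gm4982, 48.3% for Tdpoz2 (Gm5773 and Gm9141), 44.4% for Tdpoz1 (Gm9117 and Gm9125) and 41.2% for Tdpoz4 (Gm5541 and Gm4858). How the authors counted reads that match several genes is not given in the sources used here, so the level of a single member is uncertain to that extent, and the level of Tdpoz5 cannot be told apart from that of Gm10697.

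Values are reads divided by a size factor, called normalised reads below. They come in a chimera table (mCherry, FL, C1+14, C3+14 and the C1C3 chimeras a, b and c, 14 libraries) and a deletion table (FL, C12345delt14, deltC12345+14 and deltC12345delt14, 8 libraries). The tables were scaled separately and hold the same FL libraries, so groups were compared only within a table. Library totals ran from 21059953 to 40448890 reads. The libraries fall into a set with 1.66% to 2.58% of their reads in 1593 high-copy genes, at least 50% of whose 50-base words occur in 20 or more genes, and a set with 0.295% to 0.419%. Both C3+14 libraries, both mCherry libraries, deltC12345+14 replicate 2 and deltC12345delt14 replicate 1 are in the low set. None of the 50-base words of the members occurs in 20 or more genes. All 10 pluripotent stem cell markers had reads in every library, and summed to between 47988 and 110416 normalised reads in the chimera table, highest in mCherry. The 8 fibroblast markers, for feeder cells, summed to between 43.0 and 256 normalised reads per library there, with 1 to 4 of them at 0. Reads of the 2 annotated Dux genes were at 0 in every library, so they do not check the construct labels. A 0 count is compatible with up to 3 reads in that library, which covers counting error only, and folds against a group at 3 reads or fewer are given as lower bounds.

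With FL, all Tdpoz members were present, and with mCherry alone they were at or near 0 (plot of the members by library). Tdpoz3 had 5756 and 5390 reads in the FL libraries, Tdpoz4 had 1069 and 700, Tdpoz5 had 440 and 227, Tdpoz1 had 268 and 165, and Tdpoz2 had 39 and 29. In mCherry the only read among the members was 1 read of Tdpoz5 in replicate 1. The FL and mCherry libraries did not overlap for any member, and the share of all genes without overlap was not counted. In normalised reads, the FL mean was at least 3272-fold higher than that of mCherry for Tdpoz3, at least 529-fold for Tdpoz4, at least 202-fold for Tdpoz5, at least 130-fold for Tdpoz1 and at least 20.2-fold for Tdpoz2. By limma on log2(value + 1), with Benjamini-Hochberg adjustment over all genes tested, adjusted p-values ran from 1.22e-11 (Tdpoz3) to 3.27e-07 (Tdpoz2). A gene was called at an adjusted p under 0.05 and an absolute log2 difference of at least 1. All 5 members were called higher, beside 44.2% of the 21584 genes tested, which were called in either direction. The libraries of FL and mCherry belong to different sets by high-copy share, and the part of that difference in the result was not tested. The C1+14 libraries, in the high set like FL, had 0 reads of every member. These are bulk cultures, so fewer cells with Tdpoz RNA and less of it per cell cannot be told apart. Cell-state markers were counted in the same comparison. Only the 2-cell-like and pluripotency lists had a larger share called than the 44.2% of all genes. The 9 markers of 2-cell-like cells summed to 12.5 and 14.6 normalised reads in mCherry, with 6 of 9 at 0, and all 9 were called higher in FL. In FL 8 of 10 pluripotency markers were called lower than in mCherry. Of 6 trophectoderm markers, 5 of them tested, 2 were called lower and 0 higher. Of 6 primitive endoderm markers 1 was called in each direction. Of 8 fibroblast markers, 6 of them tested, 1 was called higher and 0 lower. Their part in the Tdpoz result was not tested.

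**Figure D1:**
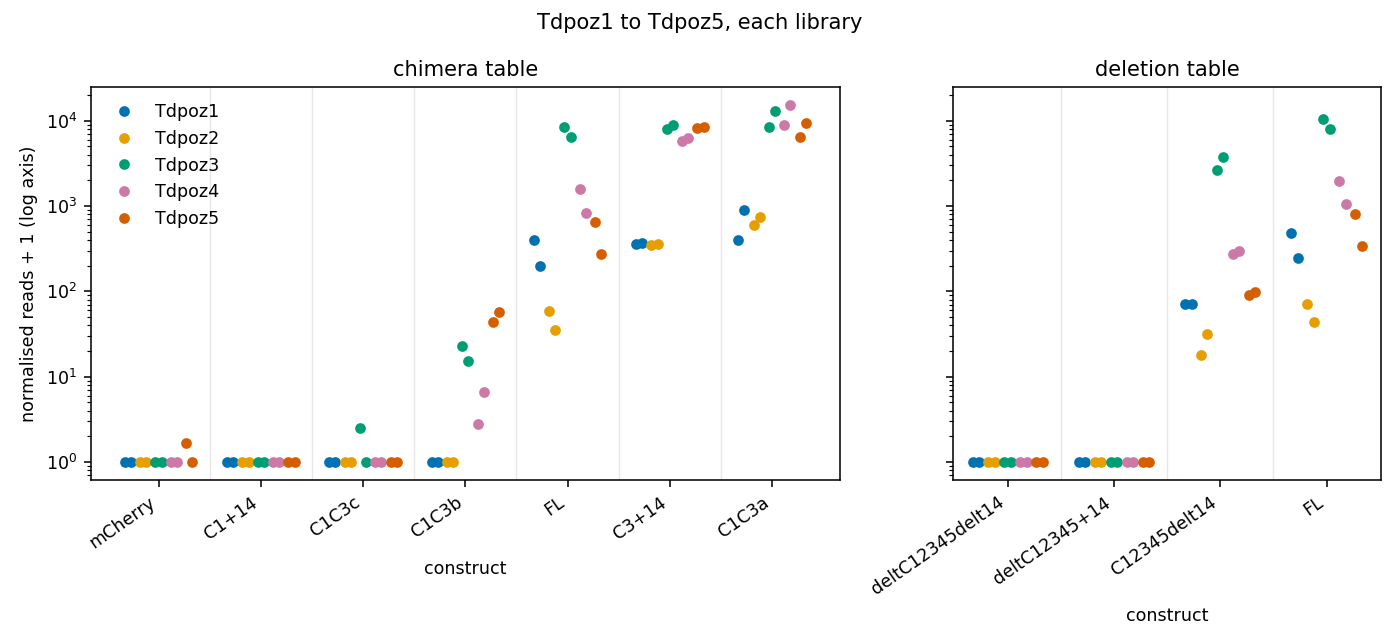
Normalised reads plus 1 (log axis) of each Tdpoz member in each library, by construct, for the chimera table (left) and the deletion table (right). Each point is 1 library. Members of FL, C3+14, C1C3a and C12345delt14 lie well above those of mCherry, C1+14, C1C3c, deltC12345+14 and deltC12345delt14, which sit at or near 0 reads, and 3 members lie between in C1C3b.

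The levels within FL differed widely between the members. Per kilobase of exon, Tdpoz3 stood at 6784 ± 1330 normalised reads (SD, n = 2), Tdpoz4 at 1082 ± 471, Tdpoz5 at 449 ± 261, Tdpoz1 at 126 ± 59.6 and Tdpoz2 at 40.2 ± 14.2. The order was the same in both FL libraries. Of the reads of the 5 members in FL, 79.4% ± 4.78 (SD, n = 2) were from Tdpoz3, 12.4% ± 2.38 from Tdpoz4 and 4.65% ± 1.64 from Tdpoz5. Together the members took 235 and 207 RPM (the reads-per-million scale) in the FL libraries.

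Every member was also present with C3+14 and with C1C3a. In C3+14, Tdpoz3 had 4820 and 5492 reads, Tdpoz5 had 4927 and 5251, Tdpoz4 had 3416 and 3835, Tdpoz2 had 209 and 222, and Tdpoz1 had 213 and 224. In C1C3a, Tdpoz4 had 8003 and 10749 reads, Tdpoz3 had 7663 and 9292, Tdpoz5 had 5786 and 6563, Tdpoz1 had 357 and 634, and Tdpoz2 had 542 and 531. Both constructs were above mCherry in each library for each member, and the share of all genes that separate so was not counted. All 5 members were called higher than mCherry in C3+14, beside 47.3% of all genes tested, and all 5 in C1C3a, beside 46.4%. The bounds ran from at least 156-fold higher (Tdpoz2) to at least 3727-fold (Tdpoz3) in C3+14, and from at least 284-fold (Tdpoz1) to at least 5288-fold (Tdpoz4) in C1C3a. Cell-state markers were counted here too. The 9 markers of 2-cell-like cells were all called higher than mCherry with both constructs. With C3+14, 7 of 10 pluripotency markers were called lower and 0 higher. Called higher were 3 of 6 trophectoderm (5 tested), 3 of 6 primitive endoderm and 3 of 8 fibroblast markers (6 tested). In each of these last lists 1 marker was called lower. With C1C3a, 4 pluripotency markers were called lower, 3 primitive endoderm markers higher and 1 lower, 1 trophectoderm marker in each direction and 2 fibroblast markers higher. Their part in the Tdpoz levels was not tested. C3+14 and mCherry are both in the set of low high-copy share. These comparisons share the mCherry libraries with that of FL.

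Against FL, the members split. Tdpoz5, Tdpoz4 and Tdpoz2 were higher in C3+14 and in C1C3a, and the differences of Tdpoz3 and Tdpoz1 did not pass the test in either. Tdpoz5 had 648 and 270 normalised reads in FL, 8255 and 8505 in C3+14, and 6405 and 9291 in C1C3a. This is 18.2-fold higher in C3+14 (log2 difference 4.32 ± 0.41 SE, adjusted p = 4.91e-06 by limma) and 17.1-fold higher in C1C3a (4.20 ± 0.41, adjusted p = 1.78e-05 by limma). Tdpoz4 had 1575 and 833 normalised reads in FL, 5723 and 6211 in C3+14, and 8859 and 15217 in C1C3a. Its log2 difference from FL was 2.38 ± 0.45 (SE, adjusted p = 0.00108 by limma) and 3.34 ± 0.45 (adjusted p = 2.00e-04). Tdpoz2 had 57.5 and 34.5 normalised reads in FL, 350 and 360 in C3+14, and 600 and 752 in C1C3a, or 7.72-fold and 14.7-fold the FL mean (adjusted p = 2.43e-04 and 6.99e-05 by limma). For these genes no FL library reached any library of C3+14 or C1C3a, and the share of all genes that separate so was not counted.

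Tdpoz3, the leading member in FL, had 8481 and 6416 normalised reads there, 8076 and 8895 in C3+14, and 8482 and 13154 in C1C3a. The FL and C3+14 libraries overlapped, and the lower C1C3a library was level with the higher FL library. The log2 difference from FL was 0.20 ± 0.40 (SE, adjusted p = 0.72 by limma) in C3+14 and 0.52 ± 0.40 (adjusted p = 0.381) in C1C3a. Tdpoz1 had 395 and 196 normalised reads in FL, 357 and 363 in C3+14, and 395 and 898 in C1C3a. Its log2 differences from FL were 0.37 ± 0.51 (adjusted p = 0.595) and 1.09 ± 0.51 (adjusted p = 0.137). The difference of Tdpoz1 in C1C3a passed the call with DESeq2 (adjusted p = 0.043) and with a pseudocount of 8 (adjusted p = 0.0476). In all, 3 of 5 members were called higher than FL in C3+14, beside 26.3% of all genes tested, and 3 of 5 in C1C3a, beside 15.6%. Both comparisons use the same FL libraries. The FL and C1C3a libraries are in the same set by high-copy share, and C3+14 is in the other. In C3+14, markers called higher than FL were 2 of 10 pluripotency, 4 of 6 primitive endoderm and 2 each of the 2-cell-like, trophectoderm and fibroblast lists. None was lower. In C1C3a, 4 pluripotency and 3 primitive endoderm markers were called higher and 0 lower. Of 9 markers of 2-cell-like cells 2 were higher and 3 lower there. The part of these markers was not tested.

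The order of the members by level also differed from that in FL. In C3+14 the level per kilobase was 8191 ± 173 normalised reads (SD, n = 2) for Tdpoz5 and 7728 ± 528 for Tdpoz3, then 5361 ± 310 for Tdpoz4, 310 ± 5.80 for Tdpoz2 and 153 ± 1.78 for Tdpoz1. In C1C3a it was 10816 ± 4040 for Tdpoz4, 9853 ± 3009 for Tdpoz3 and 7671 ± 1995 for Tdpoz5. These SDs hold the scaling that the members of a library share, so shares within each library were also taken. Of the length-scaled level of the 5 members, Tdpoz5 took 37.7% ± 0.97 (SD, n = 2) in C3+14 and Tdpoz3 35.5% ± 0.76, in the same order in both libraries. In the C1C3a libraries Tdpoz4 took 35.2% and 38.2%, Tdpoz3 34.1% and 33.5%, and Tdpoz5 27.7% and 25.4%, again in the same order in both. Tdpoz2 at 590 ± 93.7 and Tdpoz1 at 275 ± 151 normalised reads per kilobase came last. The reads of Tdpoz5 per read of Tdpoz3 were 0.0764 and 0.0421 in the FL libraries, 1.02 and 0.956 in C3+14, and 0.755 and 0.706 in C1C3a. The ratio of Tdpoz4 to Tdpoz3 was 0.186 and 0.13 in FL, 0.709 and 0.698 in C3+14, and 1.04 and 1.16 in C1C3a. Ratios within a library do not depend on its scaling, and for both the FL libraries were below every library of the other constructs. With 2 libraries against 2, the smallest p-value that an exact permutation test can give is 0.333, so these ratios were not tested. Tdpoz5 had 1.04 to 1.13 reads for each read of its identical copy Gm10697 in each FL, C3+14, C1C3a and C12345delt14 library.

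**Figure D2:**
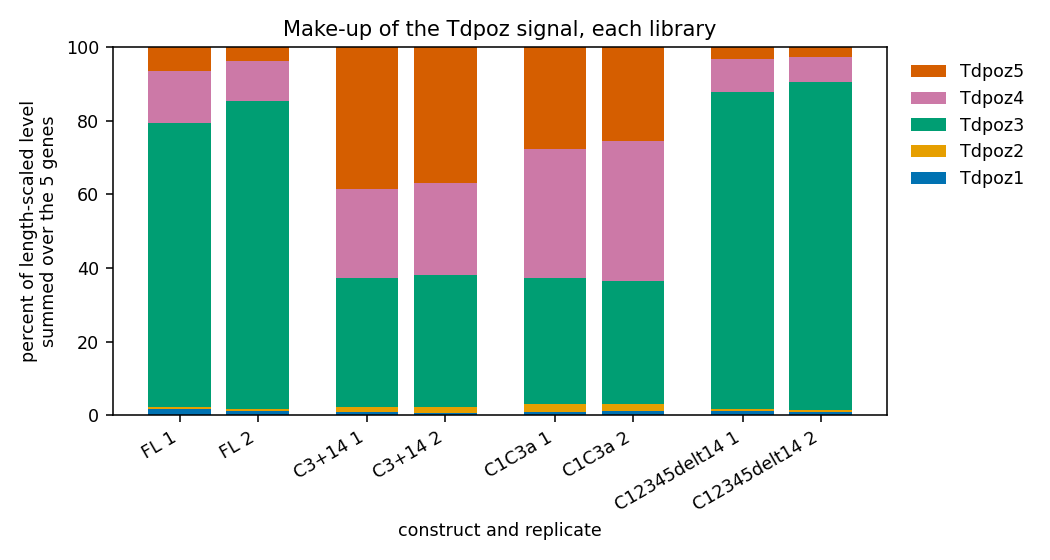
Percent of the length-scaled level summed over the 5 Tdpoz members that each member takes, by construct and replicate. Tdpoz3 takes the larger part in FL and C12345delt14, and Tdpoz3, Tdpoz4 and Tdpoz5 each take over 20% in C3+14 and C1C3a.

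C1C3a and C3+14 were set against each other next. The log2 difference of C1C3a from C3+14 was 0.96 ± 0.45 (SE) for Tdpoz4, 0.92 ± 0.46 for Tdpoz2, 0.73 ± 0.51 for Tdpoz1, 0.32 ± 0.40 for Tdpoz3 and -0.12 ± 0.41 for Tdpoz5. By limma, 0 of 5 members were called, with adjusted p-values from 0.144 to 0.867, beside 14.9% of all genes tested. Differences of this size were not detectable against the spread of these libraries, which does not show that the levels were equal.

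The C1C3b construct gave a weak signal from 3 members. Tdpoz5 had 49 and 60 reads, Tdpoz3 had 25 and 15, and Tdpoz4 had 2 and 6, and Tdpoz1 and Tdpoz2 had none. Against mCherry, Tdpoz5 was at least 21.8-fold higher (adjusted p = 2.64e-07 by limma), Tdpoz3 at least 7.91-fold (adjusted p = 1.51e-06) and Tdpoz4 at least 1.62-fold (adjusted p = 0.00132). These 3 of 5 members were called, beside 44.7% of all genes tested. The call of Tdpoz4 rests on 8 reads and was lost with a pseudocount of 8, with quantile normalization and with edgeR's quasi-likelihood test. Per kilobase, Tdpoz5 at 48.5 ± 9.23 normalised reads (SD, n = 2) was above Tdpoz3 at 16.4 ± 5.05, and Tdpoz3 above Tdpoz4 at 3.32 ± 2.46. The order of Tdpoz5 and Tdpoz3 in C1C3b was thus not that of FL. The members took 3.01 and 3.48 RPM, against 207 to 939 RPM in FL, C3+14 and C1C3a. The markers of 2-cell-like cells summed to 22707 and 33017 normalised reads in C1C3b, against 593738 and 860956 in C1C3a. Against mCherry, 7 of 10 pluripotency markers were called lower in C1C3b and 0 higher.

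All 5 members were called lower in C1C3b than in FL, beside 43% of all genes tested, and lower than in C1C3a, beside 35.6%. The FL mean was 414-fold above C1C3b for Tdpoz3, 326-fold for Tdpoz4 and 9.25-fold for Tdpoz5, at least 109-fold for Tdpoz1 and at least 16.9-fold for Tdpoz2. The C1C3a mean was above it 3260-fold for Tdpoz4, 601-fold for Tdpoz3 and 158-fold for Tdpoz5. FL, C1C3a and C1C3b are all in the set of high high-copy share.

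C1C3c and C1+14 gave next to no Tdpoz reads. In C1C3c the only reads among the members were 2 of Tdpoz3 in replicate 1, and C1+14 had none in either library. Against mCherry, 0 of 5 members were called in C1C3c, beside 28.8% of all genes tested, and 0 of 5 in C1+14, beside 18.3%. The members passed the filter for testing through other constructs. At 0 to 2 reads per library here, they could hardly reach the size of the call, so these counts do not show that they were unchanged. Without C1C3c replicate 2, Tdpoz3 was called higher in C1C3c, on the 2 reads of the other library, and with quantile normalization Tdpoz5 was called lower, against the 1 read of mCherry. The markers of 2-cell-like cells summed to 1442 and 1652 normalised reads in C1C3c and to 11.2 and 25.6 in C1+14. Against mCherry, 6 of 10 pluripotency markers were called lower in C1C3c and 3 of 10 in C1+14, and 0 higher in either. All 5 members were called lower than FL in C1C3c, beside 44%, and in C1+14, beside 39.9%. For Tdpoz3 the FL mean was at least 3472-fold above C1C3c and at least 3675-fold above C1+14. C1+14, C1C3c and FL are in the same set by high-copy share.

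The chimeras were also set against C1+14. C1C3a had 5 of 5 members called higher, beside 40.8% of all genes tested, C1C3b had 3 of 5, beside 28.9%, and C1C3c had 0 of 5, beside 7.83%. The members were at or near 0 reads in C1C3c and C1+14, so a call between these groups was hardly possible. Between the chimeras, 3 of 5 members (Tdpoz3, Tdpoz4 and Tdpoz5) were called lower in C1C3c than in C1C3b, beside 11.2%. Tdpoz5 was at least 23.1-fold lower there, Tdpoz3 at least 8.39-fold and Tdpoz4 at least 1.72-fold. Without C1C3b replicate 2, with edgeR or with a pseudocount of 8 the call of Tdpoz4 between C1C3c and C1C3b was lost, and with edgeR or a pseudocount of 8 so was that between C1C3b and C1+14 (adjusted p = 0.077 and 0.187).

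**Figure D3:**
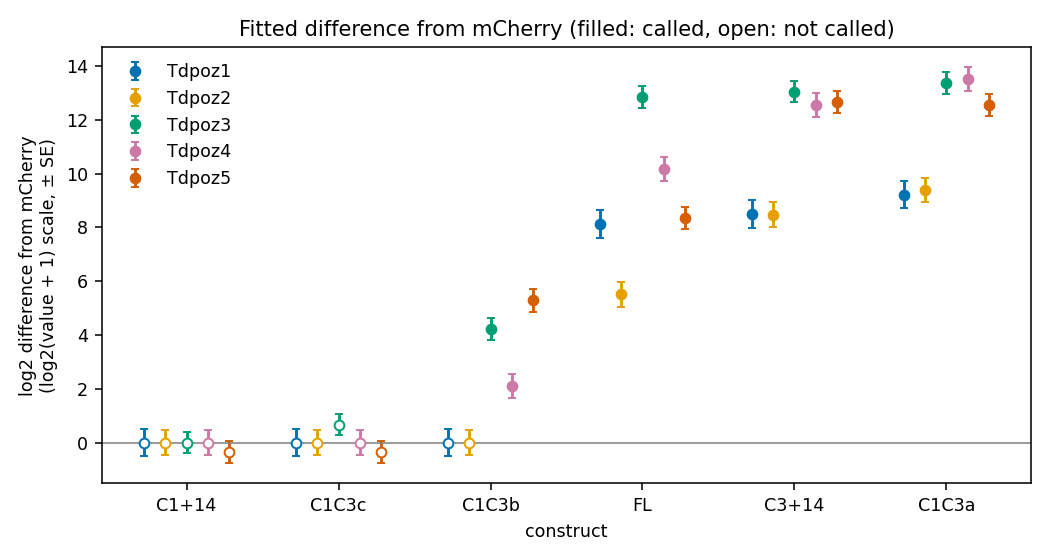
Log2 difference of each Tdpoz member from mCherry (vertical axis, log2(value + 1) scale) for the constructs of the chimera table, with the standard error of the limma fit as bars. Filled points passed the call and open points did not: all members in FL, C3+14 and C1C3a, 3 in C1C3b, and 0 in C1C3c and C1+14.

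In the deletion table every member had reads with C12345delt14, at a lower level than with FL. Tdpoz3 had 2300 and 4543 reads, Tdpoz4 had 238 and 358, Tdpoz5 had 79 and 119, Tdpoz1 had 62 and 85, and Tdpoz2 had 15 and 37. In normalised reads Tdpoz3 was at 2629 and 3725 in C12345delt14 and at 10430 and 8026 in FL. Tdpoz5 was at 90.3 and 97.6 against 797 and 338. For each member both C12345delt14 libraries were below both FL libraries. The share of all genes that separate in this way was not counted. With 2 libraries against 2, the smallest p-value of an exact permutation test is 0.333. The FL mean was 6.04-fold higher for Tdpoz5, 5.27-fold for Tdpoz4, 5.20-fold for Tdpoz1, 2.90-fold for Tdpoz3 and 2.40-fold for Tdpoz2. The 9 markers of 2-cell-like cells summed to 973978 and 624060 normalised reads in C12345delt14, against 2.89e+06 and 1.62e+06 in FL. Their median log2 difference was -1.50, and 0 of 9 were called by limma, beside 0.958% of all genes tested. Of 10 pluripotency markers 0 were called. The part of these markers in the Tdpoz difference was not tested.

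By limma the differences of the members did not pass the call. The log2 differences were -2.46 ± 0.55 (SE) for Tdpoz5, -2.33 ± 0.47 for Tdpoz4, -2.28 ± 0.52 for Tdpoz1, -1.55 ± 0.34 for Tdpoz3 and -1.24 ± 0.57 for Tdpoz2. Adjusted p-values ran from 0.0609 (Tdpoz4) to 0.223 (Tdpoz2), so 0 of 5 members were called, beside 0.958% of the 19833 genes tested. DESeq2 on the recovered reads called 4 of 5 members lower and edgeR's quasi-likelihood test 3 of 5, and without FL replicate 2 limma called 3 of 5. Over all genes these fits called 1296, 467 and 1293, against 190 by limma with all libraries. In C12345delt14, 86.9% ± 2.10 (SD, n = 2) of the members' reads were from Tdpoz3 and 2.62% ± 0.44 from Tdpoz5. The order per kilobase was that of FL: 2893 ± 706 normalised reads for Tdpoz3, 254 ± 13.6 for Tdpoz4, 91.8 ± 5.02 for Tdpoz5, 29.9 ± 0.35 for Tdpoz1 and 20.7 ± 8.15 for Tdpoz2, the last pair differing by little more than the SD of Tdpoz2.

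With deltC12345+14 and deltC12345delt14 no member had a read. Tdpoz1 to Tdpoz5 were at 0 reads in both libraries of deltC12345+14 and both of deltC12345delt14. All 5 were called lower than FL in deltC12345+14, beside 38.4% of all genes tested, and in deltC12345delt14, beside 39.1%. Tdpoz3 was at least 4334-fold lower in deltC12345+14 and at least 3729-fold lower in deltC12345delt14. C12345delt14 was above both: 5 of 5 members were called higher than in deltC12345delt14, beside 22%, and 5 of 5 higher than in deltC12345+14, beside 19.8%, with at least 1284-fold and at least 1492-fold for Tdpoz3. Between deltC12345+14 and deltC12345delt14, 0 of 5 members were called by limma, beside 0%, and none could be, since all had 0 reads in both. Of 19833 genes 0 passed the call there, 543 had an unadjusted p under 0.05 by limma, and DESeq2 called 4 genes. The 9 markers of 2-cell-like cells summed to 4.91 and 3.59 normalised reads in deltC12345+14 and to 10.7 and 4.97 in deltC12345delt14. All 9 were called lower than FL in each, and 8 of 10 pluripotency markers higher, with 0 lower. Each of these groups has 1 library in the low set by high-copy share and 1 in the high set. Leaving out either library of either group left the counts of members called against FL at 5. All these libraries had 0 reads of the members, so this could hardly come out otherwise and does not test the library set.

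Other genes of the array were high in the same constructs. Besides the members, 20 genes of chromosome 3 match a member over at least 50% of its bases, 9 of them annotated as coding (among them Gm10697, Gm4858 and Gm9125, which RefSeq names Tdpoz7, Tdpoz8 and Tdpoz9) and 11 as unprocessed pseudogenes. They are not independent of the members where they share reads. Against mCherry, 20 of 20 were called higher in each of FL, C1C3a and C3+14, beside 44.2%, 46.4% and 47.3% of all genes tested. The count was 16 of 20 with C1C3b (beside 44.7%), 2 with C1C3c (28.8%) and 0 with C1+14 (18.3%). In FL the folds were lower bounds from 13.6 to 2742, with a median of at least 535-fold, against a median of at least 202-fold over the 5 members. The median log2 difference over all genes tested was 0.09. The genes called in C1C3c were Gm4778 (RefSeq Spopfm1), at 2 and 8 reads, and Gm10696 (Spopfm2), at 2 and 1 reads. They are named after their values were seen. Gm10696 did not exceed the floor of 3 reads there, and Gm4778 was at least 1.52-fold above mCherry.

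Against FL the other array genes also split. In C1C3a, 16 of 20 array genes were called higher, beside 15.6% of all genes tested, and in C3+14 14 of 20, beside 26.3%. Their median log2 differences were 1.94 and 1.44, beside 3.34 and 2.38 over the members. The near copies followed their member. Those of Tdpoz5 and Tdpoz2 stood high: Gm10697 differed from FL by 4.18 ± 0.42 (SE) in C1C3a, Gm5773 by 4.91 ± 0.42 and Gm9141 by 4.51 ± 0.44 on the log2 scale. Those of Tdpoz3 and Tdpoz1 did not pass the call: Gm4982 differed by 0.34 ± 0.46, Gm9117 by 0.47 ± 0.47 and Gm9125 by 0.57 ± 0.47. For Tdpoz4, Gm5541 differed by 3.11 ± 0.43 and Gm4858 by 2.87 ± 0.59, both called. These pairs share 23.4% to 100% of the 50-base words of the member, and how far they were counted from the same reads was not tested.

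Genes that were called and genes that were not lie next to each other in the array. Tdpoz1, not called, lies between Tdpoz2 and Gm37596, both called higher in C1C3a and C3+14. Per kilobase the highest array gene in FL was Tdpoz3, followed by the pseudogene Gm9113 at 4891 normalised reads. In C1C3a it was Gm9113 at 13739. In C12345delt14, 11 of 20 array genes were called lower than FL and 0 higher, beside 0.958% of all genes tested. Log2 differences over all 20 ran from -3.13 (Gm9121) to -1.19 (Gm5773). Summed over the members and the other array genes, the level was 1492 and 1034 RPM in the FL libraries, 3772 and 3809 RPM in C3+14 and 3657 and 5322 RPM in C1C3a. It was 15.9 and 16.1 RPM in C1C3b and 289 and 407 RPM in C12345delt14. In C1C3c, C1+14, mCherry, deltC12345+14 and deltC12345delt14 it was at most 0.841 RPM in any library. A read that matched several of these genes may have been counted more than once in this sum.

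**Figure D4:**
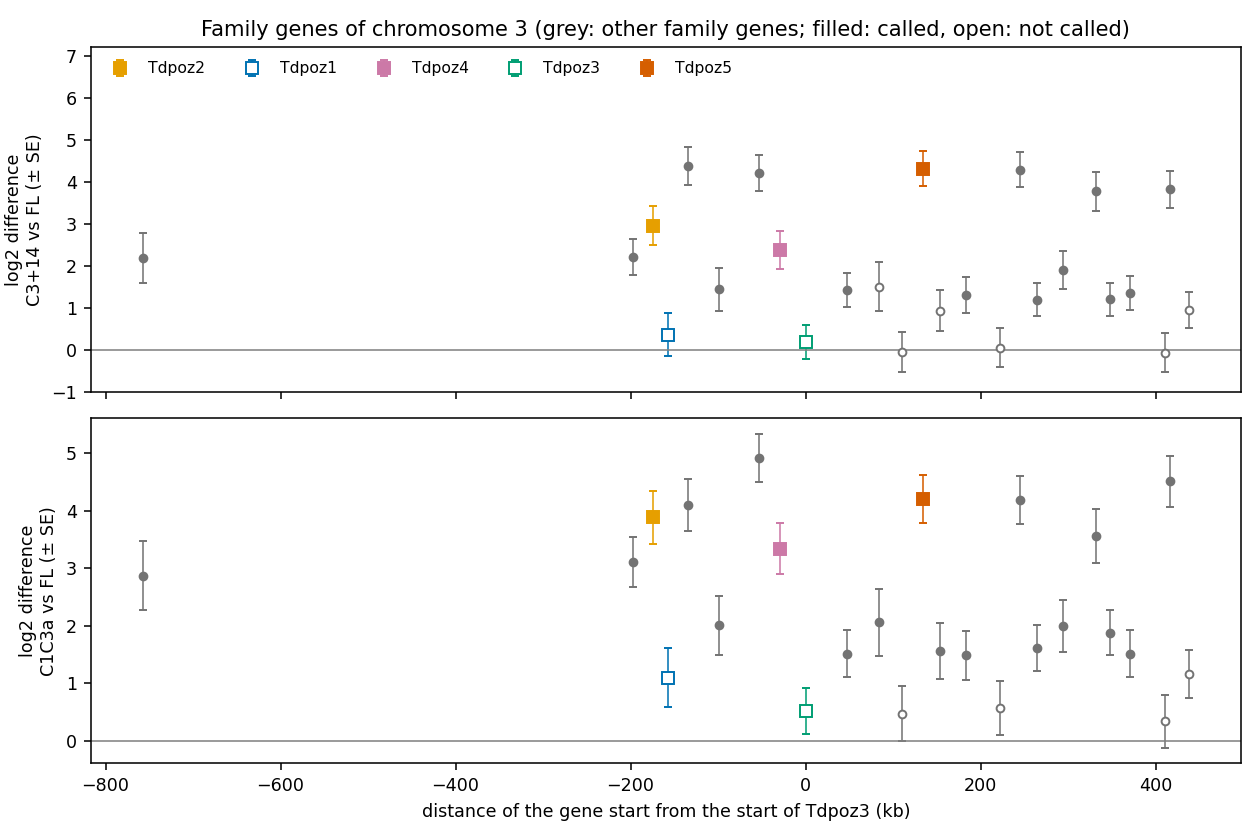
Log2 difference from FL of C3+14 (top) and C1C3a (bottom) for the family genes of chromosome 3, by the distance of each gene's start from that of Tdpoz3 in kilobases, with the standard error as bars. Squares are the Tdpoz members and grey circles the other genes. Filled symbols passed the call. Tdpoz1 and Tdpoz3 lie near or below 1, below their neighbours Tdpoz2 and Tdpoz4, and many of the other genes lie between 1 and 2.

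Neighbours outside the family were counted as well. Within 250 kb of the stretch from the first to the last member lie 27 annotated genes outside the family by the rule used here. Of these, 13 were tested. In FL 9 of the 13 were called higher than mCherry and 0 lower, beside 44.2% of all genes called in either direction. These are 8 unprocessed pseudogenes of 189 to 434 bases and 1 transcript of unknown class. They were led by Gm38086 at a log2 difference of 6.20 ± 0.56 (SE) and Gm37430 at 5.96 ± 0.51. The shortest member has 1023 bases, so pseudogenes of this length could not meet the 50% rule for the family. Whether they are pieces of family genes was not tested. The neighbouring coding genes S100a10, S100a11 and Tchh, named here after their values were seen, differed by 1.00 ± 0.30 (adjusted p = 0.0111, just short of the log2 difference of 1), 0.34 ± 0.16 and 0.67 ± 0.49 and were not called.

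The sequence before the gene start is shown because the members were high in the same constructs. RefSeq (GRCm38.p6) gave windows of 250 bases before the start for Tdpoz1, Tdpoz4 and Tdpoz5. Capitals mark TATATAA, letters known from core promoters, and ATCATAGAAGGGGC, the longest run of letters that the windows of Tdpoz4 and Tdpoz5 share, both searched on both strands. The stretches are chr3:93676311-93676533 on the minus strand for Tdpoz1, chr3:93796208-93796357 on the plus strand for Tdpoz4 and chr3:93961355-93961504 on the minus strand for Tdpoz5. For Tdpoz4 and Tdpoz5 the RefSeq start is the start codon, and the last 40 bases before it were left out because they may be transcribed.
Tdpoz1: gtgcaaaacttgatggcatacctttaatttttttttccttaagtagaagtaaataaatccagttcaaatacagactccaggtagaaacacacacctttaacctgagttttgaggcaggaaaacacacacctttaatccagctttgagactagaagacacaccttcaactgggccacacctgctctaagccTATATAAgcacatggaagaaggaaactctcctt
Tdpoz4: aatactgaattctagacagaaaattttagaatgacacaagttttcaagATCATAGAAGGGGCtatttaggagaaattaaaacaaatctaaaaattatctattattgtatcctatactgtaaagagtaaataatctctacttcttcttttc
Tdpoz5: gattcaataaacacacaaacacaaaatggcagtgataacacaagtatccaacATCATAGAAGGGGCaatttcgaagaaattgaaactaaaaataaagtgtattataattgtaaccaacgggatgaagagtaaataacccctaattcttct
TATATAA was found before Tdpoz1 and, in the family, before Gm4858, Gm9125 and Gm10696, and in 3.04% of all 32851 windows. ATCATAGAAGGGGC was found in 4 windows (0.0122%), those of Tdpoz4, Tdpoz5, Gm4858 and Gm10697. For Gm4858 it lies in the stretch chr3:93073331-93073480, inside the GENCODE gene (chr3:93068823-93075505) and not before its start. Gm10697 is identical in transcript to Tdpoz5, and Gm4858 matches 93.4% of the bases of Tdpoz4. The 4 windows are thus not independent, and the low share does not mark a common promoter element. A match describes these letters only, and the run was chosen because Tdpoz4 and Tdpoz5 share it.

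Spop, the gene outside the array that gives the family its best-known relative, was lower where the members were high (plot of Spop and Spopl). Spop (chr11:95414080-95493406) had 687 and 668 normalised reads in mCherry and 647 and 609 in C1+14. It had 246 and 271 in FL and 134 and 128 in C3+14. Among the chimeras it had 142 and 134 with C1C3a, 171 and 186 with C1C3b, and 366 and 387 with C1C3c. No library of FL, C3+14 or the C1C3 chimeras reached those of mCherry or C1+14. Against mCherry, Spop fell by 1.39 ± 0.16 (SE) on the log2 scale in FL (adjusted p = 5.59e-06 by limma), by 2.36 in C3+14, by 2.29 in C1C3a and by 1.92 in C1C3b. In C1C3c the log2 difference of -0.85 ± 0.16 (adjusted p = 7.28e-04) did not reach the size of the call, and in C1+14 it was -0.11 ± 0.16. In C1C3b, where no member had more than 60 reads, both libraries were below both FL libraries for Spop, at a log2 difference of -0.53 ± 0.16 (SE, adjusted p = 0.00931 by limma), under the size of the call. Spop and the members were thus not ranked alike over the constructs.

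In the deletion table Spop had 303 and 339 normalised reads in FL, 258 and 401 in C12345delt14, 731 and 1032 in deltC12345+14 and 776 and 737 in deltC12345delt14. The log2 difference of C12345delt14 from FL was 0.01 ± 0.26 (SE). Spop was called lower in C12345delt14 than in deltC12345+14 (log2 difference -1.43, adjusted p = 0.00683 by limma) and deltC12345delt14 (-1.23, adjusted p = 0.0108). Without C12345delt14 replicate 1 these calls were lost, at adjusted p = 0.0538 and 0.0788, and leaving out a library of the low set, deltC12345+14 replicate 2 or deltC12345delt14 replicate 1, gave adjusted p = 0.0504 and 0.053. Spopl, the close paralog of Spop, had between 368 and 630 normalised reads in the libraries of the chimera table and was called in none of the 23 comparisons.

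**Figure D5:**
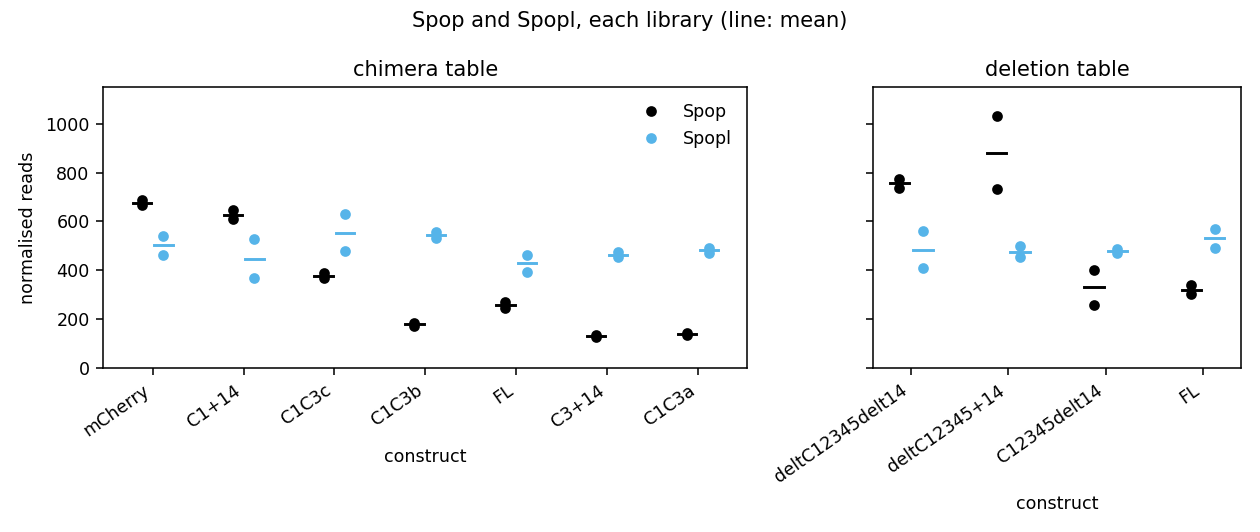
Normalised reads of Spop (black) and Spopl (blue) in each library by construct, with lines at the group means, for the chimera table (left) and the deletion table (right). Spop lies between 128 and 387 in FL, C3+14 and the C1C3 chimeras and above 600 in mCherry and C1+14, and Spopl stays between 368 and 630.

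The genes of the CUL3 ligase with which SPOP works were counted next, from a list of 30 genes for cullins, the neddylation enzymes that activate them and BTB adaptors. In FL against mCherry 1 of 30 was called higher and 8 lower, beside 5290 higher and 4241 lower (44.2% called) of 21584 genes tested. The share called in the list was thus below that of all genes. The median log2 difference was -0.21, beside 0.09 over all genes tested. The 8 genes called lower and the 1 called higher are substrate adaptors, a class noticed after the values were seen. Other adaptors of the list, such as Klhl9, Klhl20, Klhl22, Kctd13 and Spopl, were not called. Klhl21, whose product acts with CUL3 in cytokinesis, had 628 and 661 normalised reads in mCherry and 30.9 and 73.8 in FL. Its log2 difference was -3.72 ± 0.35 (SE, adjusted p = 1.07e-06 by limma). Kbtbd8 (-1.68 ± 0.26), Tnfaip1 (-1.61 ± 0.13), Kctd10 (-1.46 ± 0.21), Kbtbd2 (-1.40 ± 0.16) and Keap1 (-1.39 ± 0.19), the adaptor that holds the NRF2 factor for degradation, followed. Klhl12 (-1.11 ± 0.15) and Spop make up the 8. The 1 gene called higher, Klhl13 (1.25 ± 0.37), was named after its value was seen and lost its call under quantile normalization. In C3+14, 3 of 30 were called higher than mCherry and 5 lower, beside 47.3% of all genes called, and in C1C3a 3 higher and 2 lower, beside 46.4%. The counts were 4 and 4 with C1C3b (beside 44.7%), 4 and 2 with C1C3c (28.8%), and 0 and 2 with C1+14 (18.3%).

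Transcripts of proteins known as SPOP substrates were listed as well. Of 15, 0 were called higher and 5 lower in FL against mCherry, beside 44.2% of all genes called, with a median log2 difference of -0.69 beside 0.09. The genes called were Myc (-4.46 ± 0.55, SE), Nanog (-1.50 ± 0.24), Gli2 (-1.39 ± 0.38), Setd2 (-1.26 ± 0.18) and Ncoa3 (-1.11 ± 0.14). Myc had 263 and 259 normalised reads in mCherry and 23.6 and 4.76 in FL. Against mCherry, 4 of the 15 were called lower with C3+14 (beside 47.3% of all genes called) and 3 with C1C3a (46.4%), and 0 higher with either. With C1C3b 6 were lower and 2 higher (44.7%), with C1C3c 6 and 2 (28.8%), and with C1+14 1 and 1 (18.3%). These are RNA values, and SPOP acts on the proteins. Nanog is also a marker of pluripotent cells, and 8 of the 10 pluripotency markers were called lower in FL. The part of that change in this list was not tested.

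Other genes had the profile of the members. Pearson's r was taken across the 14 libraries of the chimera table between each gene's log2 values and the mean log2 value of the 5 members, as a description of libraries that share constructs and scaling. The members themselves had r of 0.975 (Tdpoz5) to 0.999 (Tdpoz4), which is high by construction because each is part of that mean. Of 21584 genes, 1027 (4.76%) reached 0.95. The most alike were Gm49187 (r = 0.998), Gm48436, the array pseudogene Gm5541, Gm8016 and Gm9176. Among genes with under 10% of their 50-base words shared with another gene they were 1700003I16Rik (0.996), Olfr699 (0.996), Prkch (0.995), Gm34730 (0.995) and Gm44736 (0.995). Olfr699, an olfactory receptor gene, had 93 and 99 reads in FL, 417 and 509 in C3+14, 538 and 666 in C1C3a, 1 and 5 with C1C3b, and 0 with C1C3c, C1+14 and mCherry. Prkch, which codes for the eta form of protein kinase C, kept 15.2 to 29.4 normalised reads in mCherry, C1+14 and C1C3c, where the members were at or near 0.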

How the data were processed

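Poly(A) RNA was sequenced with a stranded Illumina kit from 500 ng of total RNA, per the labels' protocols. The deposited signal is a scaled read count: within a column, every value is a multiple of 1 step, so that 100% of 1220714 values were whole reads within 0.01 reads. The submitters' processing notes name Trim Galore 0.5.0, FastQC, DESeq2 and build mm10; the aligner and counter are not given in the sources used here. The tables list 55487 Ensembl genes, 99.5% with a GENCODE M21 symbol.

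Groups came from the sample titles. The test was limma 3.58.1 (R 4.3.3, lmFit and eBayes with trend) on log2(value + 1), for genes at 10 or more in at least 2 libraries, with all groups of a table sharing the spread; this scale understates the folds of low genes. Groups at 0 reads add no spread to the shared estimate, so a member's standard error may be too small where it has reads. A fold against a group at 3 reads or fewer used 3 reads per library as the floor. Alternatives were pseudocounts of 0.1 and 8, no filter, edgeR 4.0.16 and DESeq2 1.42.0 on the recovered reads, quantile and TMM scaling, size factors from unshared genes, fits of only the compared groups, a replicate block, and each library left out. The limma script was tested on simulated data.

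Family genes were to be chosen by protein identity; no protein table was used here, so genes were taken whose transcripts matched a member (BLAST 2.17.0) at identical bases over at least 50% of its length, plus genes named Tdpoz or Spop. For the CUL3, SPOP substrate and neighbour lists, the plan was to name genes called in FL against mCherry, up to 6 a list by size, plus Spop and Spopl. Beyond that plan, Klhl12, Klhl13, some uncalled adaptors and uncalled neighbouring coding genes were named after their values were seen. Most alike genes are the top 5 by r. Members and lists were chosen with earlier results of these data known. Replicates differed beyond sampling noise in every group (chi-square per gene 3.55 to 89.1), so none was counted as a duplicate.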

Additional observations from a re-analysis of the deposited data

How the results depend on the processing

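Of 75 calls of a member in a comparison, 72 held under every alternative run. The calls lost were 3 with edgeR, 3 with a pseudocount of 8, 1 with quantile normalization and 1 without C1C3b replicate 2, all of Tdpoz4 where C1C3b was compared with mCherry, C1+14 or C1C3c. The count of members called in C12345delt14 against FL, 0 by limma with all libraries, was 4 with a pseudocount of 8, 3 with edgeR, 4 with DESeq2, 1 with quantile normalization, 4 when only these groups were fitted, and 0 to 3 over fits that left out 1 library (3 without FL replicate 2). In C1C3c against mCherry it was 1 with quantile normalization (Tdpoz5, lower) and 0 to 1 over left-out libraries (Tdpoz3, higher, without C1C3c replicate 2). Log2 differences of 3 uncalled results changed sign over left-out libraries: in C3+14 against FL, Tdpoz1 ran from -0.13 (without FL replicate 2) to 0.87 and Tdpoz3 from -0.00088 (without FL replicate 2) to 0.40, and in C1C3a against C3+14 Tdpoz5 ran from -0.39 to 0.15 (without C1C3a replicate 1). The cause was not tested. The count over all genes moved by over 1.5 times in 8 of 23 comparisons. Most unsteady was C12345delt14 against FL, at 190 genes and between 0 and 1296 over the alternatives, 0 without FL replicate 1 or without either C12345delt14 library. The others were C1+14 against mCherry (3953, down to 2581), C1C3c against C1+14 (1690, down to 461), C1C3a against C3+14 (3215, down to 1749), C1C3c against C1C3b (2415, down to 1441), C12345delt14 against deltC12345delt14 (4365, down to 1869) and against deltC12345+14 (3928, down to 1567), and deltC12345+14 against deltC12345delt14 (0, up to 4). Quantile normalization moved the median of all genes by up to -0.48 on the log2 scale. Deviations of same-numbered libraries correlated between -0.10 and 0.05 in the chimera table and between -0.57 and 0.14 in the deletion table. Replicate numbers thus did not mark a common pairing. The value of -0.57 means that opposite-numbered libraries of a pair of groups were alike, and no other pairing was fitted. With a block on replicate number, which does not model pairs of opposite number, 75 of 75 member calls were kept. There 45 genes instead of 190 were called in C12345delt14 against FL. Members at 0 reads limit folds to lower bounds, and reads shared with near copies limit the level of single members.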
